A study of Mus musculus with 16 samples.

Results

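Kupffer cell and macrophage markers were followed through the kidney and liver of aged mice in which Fos was targeted by a short hairpin RNA. The set held 10 of the 24984 genes in the count tables, namely Adgre1, Cd68, Lyz2, Clec4f, Vsig4, Timd4, Marco, Cd5l, Cd163 and Mrc1. These genes were chosen by name as markers, with earlier results of the same libraries known, among them how the genes stood in the libraries and between treatments. Their levels and their differences between treatments are therefore given as a description, and no test of treatment is read from them. Marco is also one of the kidney genes that the study displayed from these same libraries, so its direction there is not independent evidence.

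The mice were wild-type C57BL/6 animals labelled as 24 months old, and all received an AAV8 vector by intravenous injection. The NT group (shNT in the labels) carried a non-targeting vector and the shFos group a hairpin against Fos. The mice were female, were injected at 24 months and were sampled 3 months later. The promoter that drives the hairpin is not given in the sources used here. Whole kidney and whole liver RNA was sequenced in 16 libraries, 4 for each tissue and treatment, with no untreated or young mice among them. Libraries are numbered as in the labels, which do not state which animals gave them, so the spread between libraries may hold technical as well as animal variation. In bulk tissue fewer cells of a type and less RNA per cell cannot be told apart.

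Macrophages arise from embryonic precursors that settle in each organ and from blood monocytes, and need signalling through the receptor Csf1r and the transcription factor PU.1, encoded by Spi1. Kupffer cells are the resident macrophages of the liver sinusoids, where they clear bacteria, aged red cells and lipoproteins from portal blood. Adgre1 (the F4/80 antigen), Cd68 (a lysosomal glycoprotein) and Lyz2 (lysozyme M) mark macrophages in most organs. Clec4f (a galactose-binding lectin), Vsig4 (a complement receptor) and Timd4 (a phosphatidylserine receptor) mark Kupffer cells in the mouse, Marco and Cd163 are scavenger receptors, Cd5l is a secreted scavenger-type protein of tissue macrophages, and Mrc1 is the mannose receptor, which sinusoidal endothelium also carries.

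Promoter sequences are shown for 4 members because Fos is a subunit of AP-1 and PU.1 is the myeloid factor of the pathway. RefSeq start sites of build GRCm38.p6, which has the coordinates of mm10, were found for 9 of the 10 members, and the 250 bases before each start were searched on both strands for the AP-1 letters TGANTCA, which read the same on either strand, and for the PU.1 core GAGGAA. Cd68 was the member with AP-1 letters, which stood in 6.75% of 32851 such windows, and GAGGAA stood in 5 of the 9 member windows against 23.3% of all windows. The letters are a description and not evidence of binding. Each window below runs 5′ to 3′ on the strand of its gene and ends at the base before the start, lies upstream of its gene and in no other annotated gene, and has in capitals the AP-1 letters and GAGGAA or its reverse complement. In Cd68 the AP-1 matches begin 149 and 24 bases before the start and GAGGAA 225 bases before it. Marco has GAGGAA letters at 146 bases and Vsig4 at 155 and 53 bases before the start. Timd4 has neither GAGGAA nor TGANTCA in this window. Other forms of a PU.1 or AP-1 site were not searched in any window, so a window without these letters may still hold a site. Marco and Vsig4 are the members with the largest liver differences described further on, and Timd4 is the member whose kidney groups did not overlap. Among the windows not shown, GAGGAA stood in Mrc1 and Cd5l, whose liver log2 differences were -0.46 and -0.31. It was not in those of Cd163 (-1.03), Clec4f (-0.68) and Lyz2 (-0.32). A link between the letters and the differences was not tested.
Cd68 (chr11:69666171-69666420, minus strand): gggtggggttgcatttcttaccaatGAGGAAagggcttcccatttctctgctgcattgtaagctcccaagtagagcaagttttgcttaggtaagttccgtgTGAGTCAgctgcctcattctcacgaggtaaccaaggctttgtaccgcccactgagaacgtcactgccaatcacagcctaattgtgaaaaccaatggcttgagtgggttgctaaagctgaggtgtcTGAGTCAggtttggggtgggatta
Marco (chr1:120505025-120505274, minus strand): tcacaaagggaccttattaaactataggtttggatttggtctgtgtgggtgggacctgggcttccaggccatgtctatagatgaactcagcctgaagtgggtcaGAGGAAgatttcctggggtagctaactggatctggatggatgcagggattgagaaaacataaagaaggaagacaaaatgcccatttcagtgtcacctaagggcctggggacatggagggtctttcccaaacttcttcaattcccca
Vsig4 (chrX:96293439-96293688, minus strand): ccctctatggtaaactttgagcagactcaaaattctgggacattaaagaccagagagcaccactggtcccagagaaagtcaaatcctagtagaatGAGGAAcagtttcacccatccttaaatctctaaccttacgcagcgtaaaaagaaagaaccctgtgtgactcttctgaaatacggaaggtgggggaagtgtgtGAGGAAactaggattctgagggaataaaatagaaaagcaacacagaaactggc
Timd4 (chr11:46810549-46810798, plus strand): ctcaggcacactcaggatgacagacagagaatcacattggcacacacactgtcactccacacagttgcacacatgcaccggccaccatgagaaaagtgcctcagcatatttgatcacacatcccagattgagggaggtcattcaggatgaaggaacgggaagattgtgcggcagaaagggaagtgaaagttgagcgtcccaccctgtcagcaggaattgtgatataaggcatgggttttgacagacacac

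The libraries held 14194543 to 15534665 counted reads in kidney and 16652150 to 18300277 in liver. Hepatocyte genes summed to 48991 to 204223 CPM (read counts relative to library size, scaled by the trimmed mean of M values, TMM, within a tissue) in livers and tubule and podocyte genes to 11044 to 17606 CPM in kidneys, so the tissues matched their labels. Fos, the targeted gene, was at 6.67, 5.22, 4.21 and 5.25 CPM in NT kidneys and 2.55, 4.15, 3.98 and 2.32 CPM in shFos kidneys. Every shFos kidney lay below every NT kidney for Fos, as was so for 7.70% of the genes tested in kidney. The log2 difference was -0.73 ± 0.25 (SE) (adjusted p = 0.0955, quasi-likelihood test of edgeR). DESeq2 called Fos in kidney, with an adjusted p of 0.0425, where it called 19.7% of genes. No other setting called Fos there, and the adjusted p over all settings reached 0.228. In livers Fos was at 1.12, 2.36, 3.76 and 2.81 CPM under NT and 1.61, 1.51, 2.74 and 1.38 CPM under shFos, and the groups overlapped (-0.47 ± 0.38 (SE), adjusted p = 0.778). The library NT 4 stood apart in both tissues. Its T and B cell genes summed to 17.1 CPM in kidney against 149 to 321 in the other 7 kidneys, and its hepatocyte genes to 48991 CPM in liver against 123470.0 to 204223 in the other 7 livers. The single gene Jchain made up 41.5% to 87.5% of the T and B cell sum in the kidneys.

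The markers were first ordered by level within each tissue, per kilobase of exon so that genes of different length can be set side by side. In NT livers Lyz2 was highest at 134 ± 72.04 CPM per kb (SD, n = 4), followed by Cd5l at 69.4 ± 38.1, Clec4f at 61.05 ± 51.7 and Vsig4 at 57.5 ± 46.2 CPM per kb. Marco at 26.8 ± 27.8 and Cd68 at 25.9 ± 19.99 CPM per kb came next, and Adgre1 at 7.64 ± 4.69 and Mrc1 at 7.57 ± 3.39 CPM per kb were close to equal. Timd4 reached 5.19 ± 5.06 and Cd163 0.550 ± 0.393 CPM per kb. The ranges of neighbours in this order overlapped at every step except between Timd4 and Cd163, so the liver order is not sharp.

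In NT kidneys the order was led by the general macrophage genes. Lyz2 stood at 174 ± 64.9 CPM per kb, Cd68 at 17.5 ± 6.33, Adgre1 at 5.32 ± 2.64 and Mrc1 at 3.60 ± 0.287 CPM per kb, and the ranges of Lyz2, Cd68 and Adgre1 did not overlap with that of the next gene except for Adgre1 with Mrc1. Cd5l at 1.36 ± 0.592, Cd163 at 0.971 ± 0.482, Vsig4 at 0.544 ± 0.599, Timd4 at 0.517 ± 0.225 and Marco at 0.486 ± 0.484 CPM per kb overlapped each with its neighbour. Clec4f was last at 0.0328 ± 0.0252 CPM per kb, with 5 reads over the NT kidneys and 7 over the shFos kidneys, and 0 reads in 2 of these 8 libraries. Absence of reads leaves room for a true level of 3 counts. By library totals without TMM that is 0.208 CPM in kidney NT 2 and 0.211 CPM in kidney shFos 4, and Clec4f was not detectable at this depth in those 2. Reads of Lyz2 could in part belong to its near-identical neighbour Lyz1, which had 29 to 104 reads in kidneys and 0 to 13 in livers. Reads that fit both genes may be in neither count. The Lyz1 reads therefore set no limit on the uncertainty of Lyz2.

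**Figure D1:**
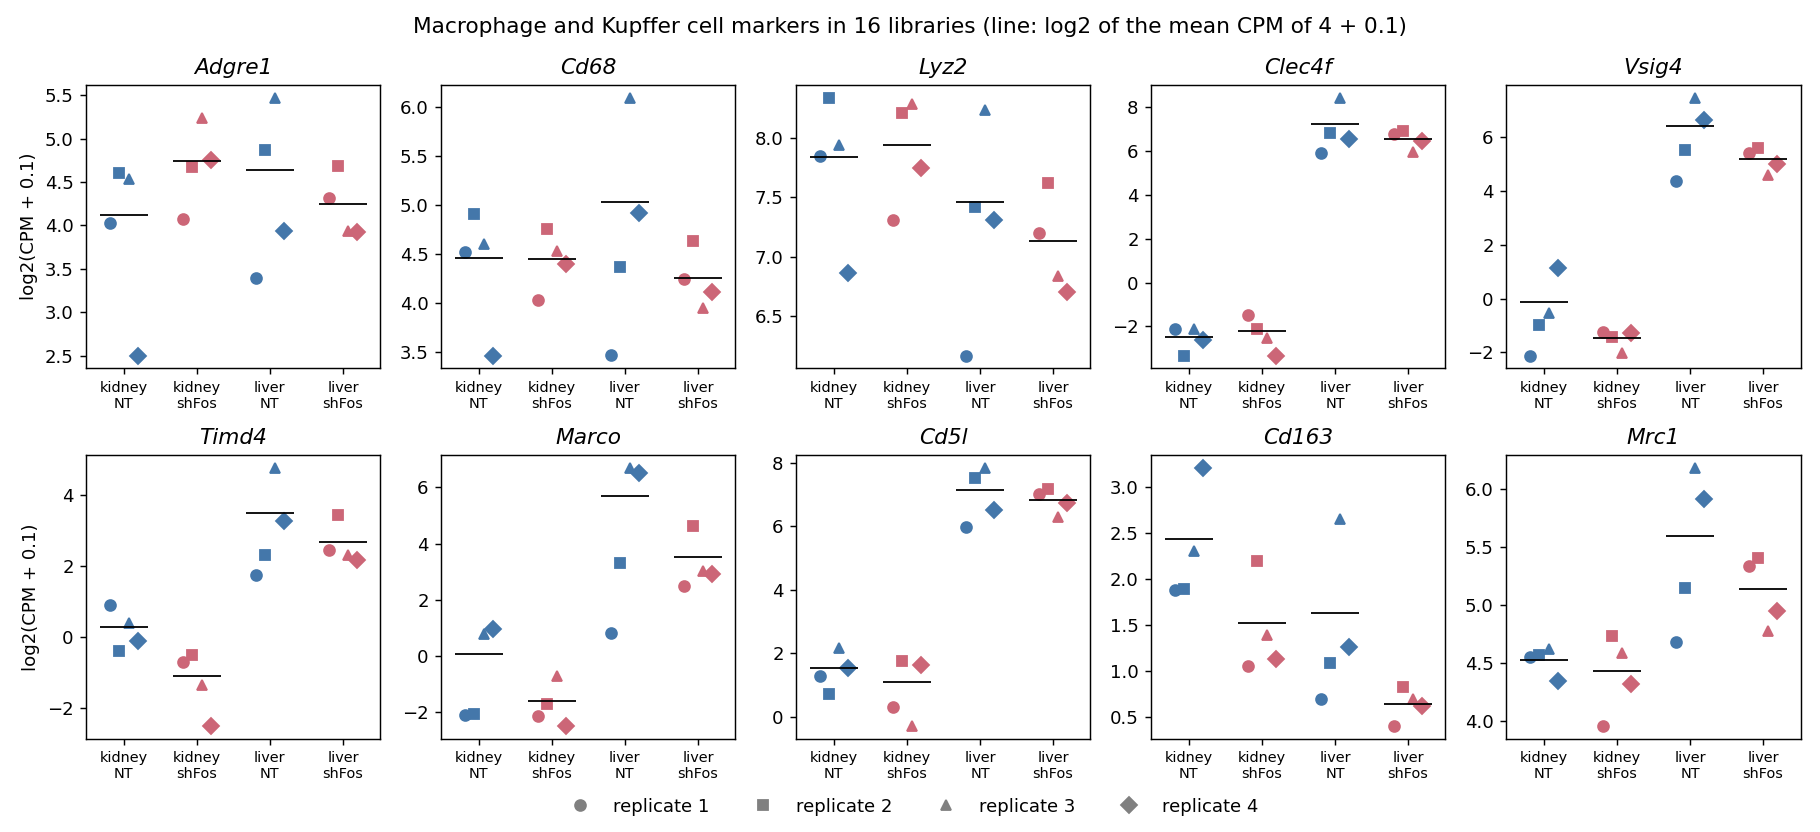
Level of each marker in all 16 libraries, as log2(CPM + 0.1), with a symbol for each replicate number, blue for NT and red for shFos, and a line at the log2 of the group mean. Clec4f, Vsig4, Timd4, Marco and Cd5l stand far higher in liver than in kidney, and in liver NT replicate 3 (blue triangle) is the highest library for every marker.

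Between the tissues, NT livers were set against NT kidneys to see which markers differ in whole-tissue RNA, which is not a contrast of Kupffer cells with kidney macrophages. In edgeR's quasi-likelihood test, without pairing of libraries, 4664 of 15421 genes (30.2%) were called higher in liver, and 8 of the 10 members were. Clec4f differed by 11.65 ± 0.76 (SE, adjusted p = 2.11e-09) on the log2 scale, although its kidney value rests on 5 reads. Clec4f, Vsig4 and Marco did not pass the filter on low counts in kidney and entered this fit through their liver level, so they had to differ, and their values and the count of 8 are a description. Vsig4 differed by 7.67 ± 0.73 (SE, adjusted p = 1.76e-07), Marco by 6.74 ± 1.15 (SE, adjusted p = 9.44e-05), Cd5l by 6.64 ± 0.53 (SE, adjusted p = 2.23e-08) and Timd4 by 4.29 ± 0.63 (SE, adjusted p = 2.2e-05). All 5 are known as genes of Kupffer cells, which are liver cells, so their higher level in liver is a description. Mrc1 differed by 2.06 ± 0.27 (SE, adjusted p = 6.31e-06), Cd68 by 1.55 ± 0.42 (SE, adjusted p = 0.00415) and Adgre1 by 1.51 ± 0.44 (SE, adjusted p = 0.00701). Lyz2 differed by 0.60 ± 0.37 (SE, adjusted p = 0.165) and Cd163 by 0.15 ± 0.42 (SE, adjusted p = 0.767), and neither was called.

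The smaller of these differences depended on how the libraries were scaled. TMM and library totals put the tissues on different scales. With library totals alone the median of all genes moved from -0.054 to -1.10, so 1509 genes (9.79%) were called higher in liver and 6 of the 10 members. Adgre1 (0.50) and Cd68 (0.57) were then not called, Lyz2 (-0.40) and Cd163 (-0.83) lay below 0, and Mrc1 (1.05), Timd4 (3.33), Cd5l (5.63), Marco (5.79), Vsig4 (6.71) and Clec4f (10.72) were still called. Relative to all genes, all 10 members lay above the median under both scalings. Of a list of 15 further Kupffer cell identity genes, 15 were called higher in liver under TMM and 9 under library totals. Of 20 further pan-macrophage genes, 12 were called higher and 1 lower under TMM, against 2 higher and 2 lower under library totals.

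In the liver all 10 markers had a lower mean under shFos than under NT, and the size of these differences rested on the library NT 3. The median log2 difference over the members was -0.72, against -0.012 over the 13144 genes tested, of which 52.3% lay below 0. No member was called, as no gene was (edgeR, 0% of genes), and DESeq2 called 37 genes (0.306%) with no member among them. At an unadjusted p under 0.05, 416 genes (3.16%) were lower and 470 (3.58%) higher under shFos, and 1 of the former, Cd163, was a member. The groups overlapped for all 10 members, where 1.64% of genes had every shFos library below every NT library. Without NT 3, 5 members were lower and 5 higher, and the median was -0.057.

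For the general macrophage genes the NT livers spanned the shFos livers on both sides. Adgre1 (ENSMUSG00000004730.15, chr17:57358691-57483527, plus strand) was at 10.4, 29.05, 44.2 and 15.3 CPM in NT livers 1 to 4 and at 19.9, 25.6, 15.2 and 15.1 CPM in shFos livers. NT 1 was the lowest and NT 3 the highest of the 8 livers. The difference was -0.38 ± 0.41 (SE) on the log2 scale, and 0.048 without NT 3. Cd68 (ENSMUSG00000018774.13, chr11:69664213-69666153, minus strand) was at 11.02, 20.5, 68.3 and 30.2 CPM under NT and 18.9, 24.8, 15.3 and 17.2 CPM under shFos, with a difference of -0.76 ± 0.48 (SE). NT 3 again lay far above the rest, and without it the difference was -0.12. Lyz2 (ENSMUSG00000069516.8, chr10:117277331-117282321, minus strand) was at 71.9, 171, 302 and 159 CPM under NT and 147, 196, 114 and 104 CPM under shFos, a difference of -0.32 ± 0.38 (SE) that became 0.061 without NT 3.

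Of the Kupffer cell genes, Clec4f (ENSMUSG00000014542.3, chr6:83644542-83656187, minus strand) was at 58.6, 112, 339.6 and 93.5 CPM in NT livers and 109, 118, 60.6 and 86.5 CPM in shFos livers. The shFos values lay within the NT range, and the difference of -0.68 ± 0.50 (SE) became 0.079 without NT 3. Vsig4 (ENSMUSG00000044206.3, chrX:96247203-96293438, minus strand) was at 20.7, 45.1, 175 and 99.98 CPM under NT and 41.9, 48.3, 24.02 and 31.5 CPM under shFos. Here both NT 3 and NT 4 stood above every shFos liver, while NT 1 stood below them all, and the difference of -1.22 ± 0.57 (SE) became -0.62 without NT 3. Timd4 (ENSMUSG00000055546.6, chr11:46810800-46844332, plus strand) was at 3.30, 4.90, 27.3 and 9.63 CPM under NT and 5.40, 10.8, 4.84 and 4.39 CPM under shFos, and its difference of -0.82 ± 0.63 (SE) became 0.078. Cd5l (ENSMUSG00000015854.7, chr3:87357881-87371073, plus strand), the most abundant member after Lyz2 per length, was at 62.96, 184, 228 and 90.3 CPM under NT and 129.8, 143, 77.1 and 105 CPM under shFos (-0.31 ± 0.39 (SE), and 0.0094 without NT 3).

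Among the scavenger receptors, Marco held the widest spread of all members. It (ENSMUSG00000026390.7, chr1:120474538-120505024, minus strand) was at 1.65, 9.68, 104 and 91.6 CPM in NT livers and 5.51, 24.7, 7.99 and 7.39 CPM in shFos livers, so NT livers 3 and 4 lay far above every other liver and NT 1 below them all. The highest NT liver was 62.8 times the lowest, against 4.47 times among shFos livers. Its difference was -2.18 ± 1.07 (SE), -1.61 without NT 3 and -1.76 without NT 4. Cd163 (ENSMUSG00000008845.9, chr6:124304656-124330527, plus strand) was scarce in liver, at 1.52, 2.02, 6.19 and 2.29 CPM under NT and 1.22, 1.67, 1.52 and 1.44 CPM under shFos. NT 3 alone lay well above the others, and the difference of -1.03 ± 0.43 (SE) was -0.42 without it. Mrc1 (ENSMUSG00000026712.3, chr2:14229392-14332057, plus strand) was at 25.5, 35.2, 72.3 and 59.9 CPM under NT and 40.2, 42.2, 27.3 and 30.8 CPM under shFos (-0.46 ± 0.31 (SE), and -0.21 without NT 3).

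The spread of these genes between livers was wider under NT. The SD of log2 CPM was larger among NT than among shFos livers for 10 of the 10 members, where the same held for 74.3% of all genes tested. The median SD over the members was 1.0 in NT and 0.40 in shFos livers, against 0.29 and 0.19 over all genes. The library NT 3 was the highest of the 8 livers for all 10 members, while it was so for 12.1% of genes, and NT 1 was the lowest for 9 of the 10, while it was so for 14.6% of genes. The 10 values share the library they come from and are not separate observations.

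**Figure D2:**
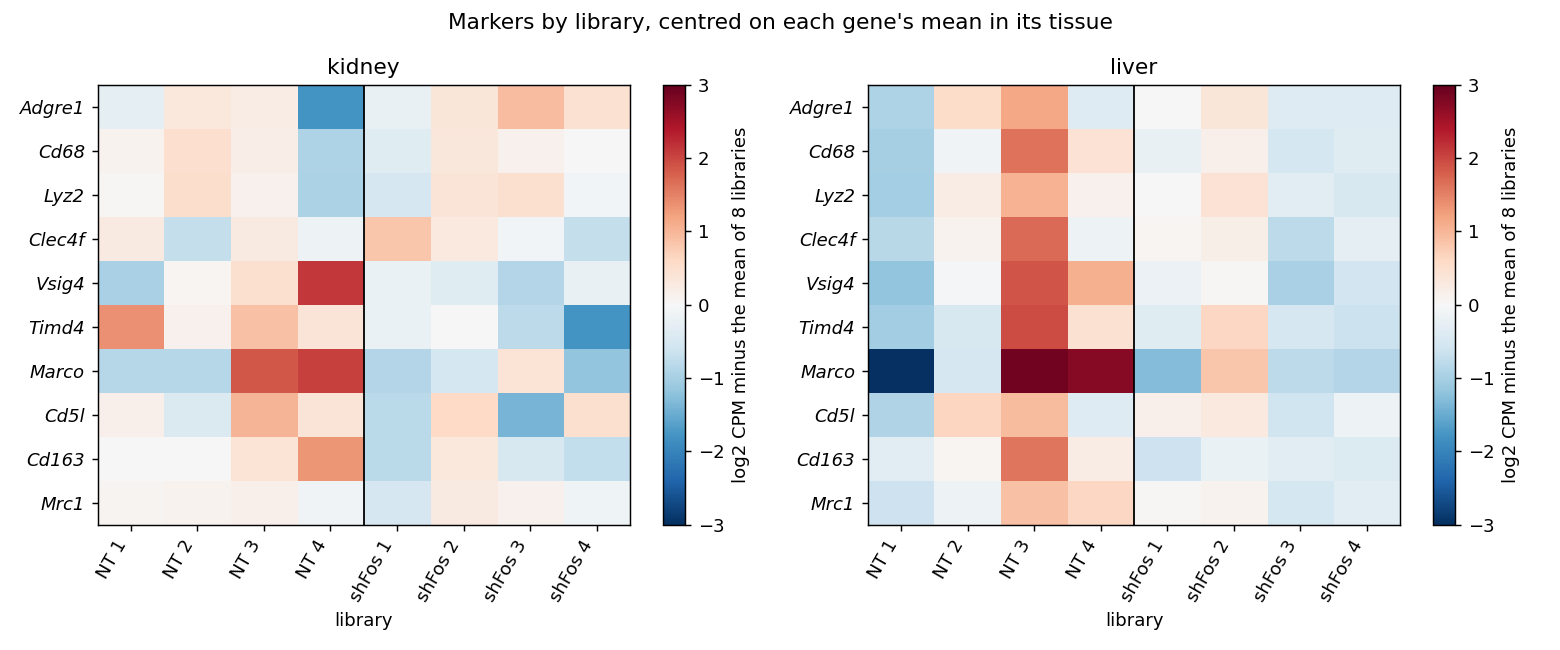
Log2 CPM of each marker minus its mean over the 8 libraries of the tissue, in kidney (left) and liver (right), with red above and blue below the mean on a scale from -3 to 3. Liver NT 3 is red and liver NT 1 blue across the markers, and in kidney NT 4 the general markers Adgre1, Cd68 and Lyz2 are low while Vsig4, Marco and Cd163 are high.

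Within a liver Vsig4 kept a narrow proportion to Clec4f, with NT 4 as the exception, while the proportion of Marco varied widely. The ratio of Vsig4 to Clec4f lay between 0.352 and 0.516 in 7 livers, and in NT 4 it was 1.07. The ratio of Marco to Clec4f was 0.980 in NT 4 and 0.305 in NT 3, and lay between 0.0282 and 0.209 in the other 6. Timd4 stood at 0.0438 to 0.103 of Clec4f over the 8 livers. Marco and Vsig4 were thus high in NT 4 in a library where Clec4f was near the middle of the 8. The ratio of Cd5l to Clec4f was between 1.20 and 1.27 in shFos livers, and in NT livers it ranged from 0.670 in NT 3 to 1.65 in NT 2.

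**Figure D3:**
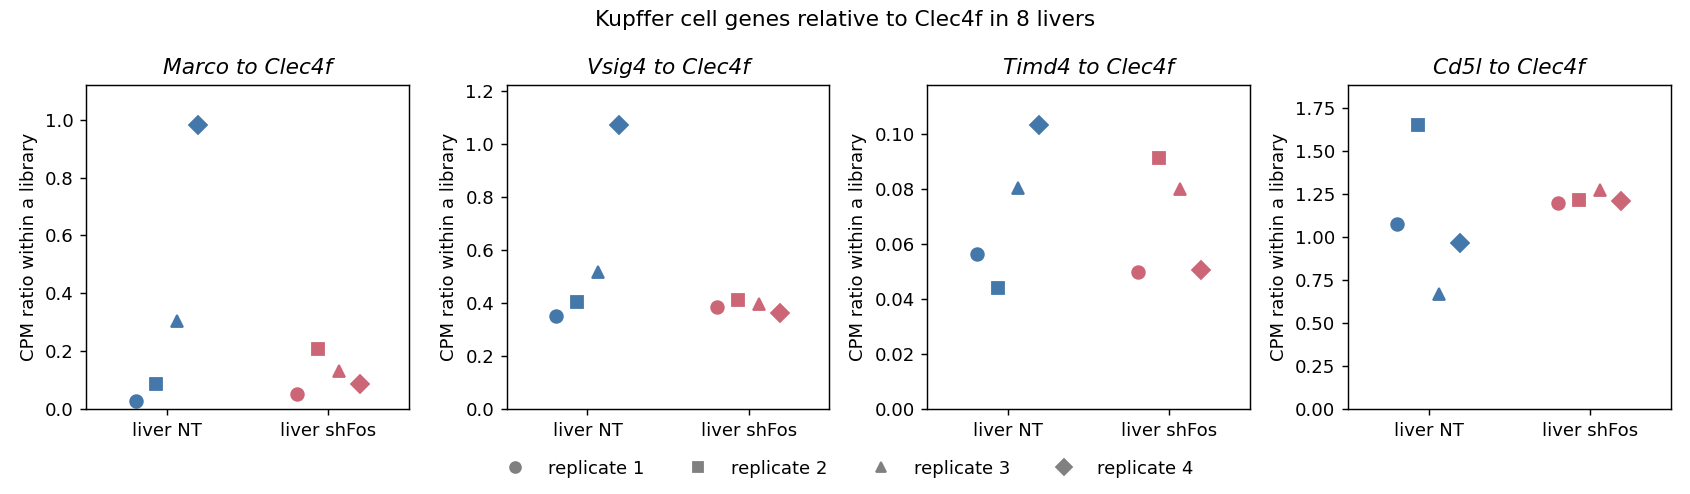
Ratio of the CPM of Marco, Vsig4, Timd4 and Cd5l to that of Clec4f in the same liver library, NT in blue and shFos in red, with a symbol for each replicate number and each axis starting at 0. In NT replicate 4 (blue diamond) Marco and Vsig4 each come close to the level of Clec4f, which they do in no other liver.

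The other genes of the macrophage programme were read from lists. Of 20 pan-macrophage genes, 20 had a log2 difference below 0 in liver and none was called, with a median of -0.63, or -0.28 without NT 3. Spi1, which encodes PU.1, was at 7.13, 17.2, 31.3 and 17.3 CPM in NT and 12.6, 16.1, 10.6 and 9.43 CPM in shFos livers (-0.58 ± 0.38 (SE)), and Csf1r, the receptor that macrophages need for survival, at 34.6, 93.8, 209 and 83.2 CPM and 66.9, 93.1, 49.3 and 52.6 CPM (-0.67 ± 0.47 (SE)). Both were highest in NT 3, and without it their differences were -0.20 and -0.12. The smallest p-values of this list belonged to Itgam, an integrin of myeloid cells, at -1.71 ± 0.63 (SE, adjusted p = 0.715) and to Mpeg1, a pore-forming protein of macrophages, at -0.70 ± 0.31 (SE, adjusted p = 0.734). Itgam was at 2.84, 5.88, 16.5 and 28.2 CPM in NT livers, highest in NT 4, and at 3.18 to 5.36 CPM in shFos livers. Mpeg1 was highest in NT 2 (354 CPM). Of 15 Kupffer cell identity genes, 13 lay below 0 and none was called (median -0.33, or -0.26 without NT 3). Among them Clec1b differed by -0.68 ± 0.28 (SE, adjusted p = 0.731) and Siglec1, a sialic acid receptor of resident macrophages, by -1.24 ± 0.52 (SE, adjusted p = 0.733). The identity list summed to 655, 798, 926 and 537 CPM in NT livers and 477 to 756 CPM in shFos livers. Among NT livers it was thus lowest in NT 4, not in NT 1, and Id3 was highest in NT 1 (144 CPM). Whether the genes of the identity list follow Kupffer cells in liver was not tested. Of 12 macrophage niche signals, a list that includes chemokines, 10 were tested and 7 lay above 0 (median 0.26). The smallest p-values there were those of Gdf2, which encodes BMP9, at 0.35 ± 0.11 (SE, adjusted p = 0.714) and of the chemokine Cx3cl1 at 0.72 ± 0.23 (SE, adjusted p = 0.714).

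Markers of other cells varied between the same livers. Of 10 neutrophil genes 9 were tested and all 9 lay below 0 (median -1.99, none called), with Camp at -3.30 ± 1.16 (SE, adjusted p = 0.714) and Ngp, another granule protein, at -3.11 ± 1.19 (SE, adjusted p = 0.719). Their summed level was 32.5, 57.1, 15.5 and 174 CPM in NT livers and 50.9, 7.14, 8.86 and 5.23 CPM in shFos livers, highest in NT 4 and not in NT 3. Of 10 monocyte genes 9 were tested and 8 lay below 0 (median -0.41, none called), with the chitinase-like Chil3 at -3.67 ± 1.26 (SE, adjusted p = 0.714). Chil3 was at 1.98, 5.30, 1.75 and 49.6 CPM in NT livers and 0.233 to 2.78 CPM in shFos livers, so its difference rested mostly on NT 4. The sum of this list, 1716 to 2425 CPM in NT and 1259.5 to 1784 CPM in shFos livers, was mostly Fn1, which hepatocytes also make. T and B cell genes summed to 80.4 CPM in NT 3 and 6.20 to 53.4 CPM in the other 7, so NT 3 was highest for lymphocyte genes as well. Dendritic cell genes summed to 32.3 CPM in NT 3 against 13.1 to 27.6, and sinusoidal endothelial genes to 254 CPM against 223 to 279. The median log2 difference was -0.092 over the dendritic cell list, 0.016 over the T and B cell list, 0.16 over the sinusoidal endothelial list and 0.11 over the hepatocyte list, and none of their genes was called. Of the genes with the smallest p in these lists, Jchain differed by 1.86 ± 0.55 (SE, adjusted p = 0.714) and Kdr by 0.43 ± 0.11 (SE, adjusted p = 0.712). Ttr differed by 0.87 ± 0.33 (SE, adjusted p = 0.715) and Cps1 by 0.61 ± 0.23 (SE, adjusted p = 0.714). Ccr7 (1.28) and Gpr182 (0.24) also lay above 0, and Cd4 (-1.58) and Clec10a (-1.49) below it. The part of these cells in the marker values was not tested.

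**Figure D4:**
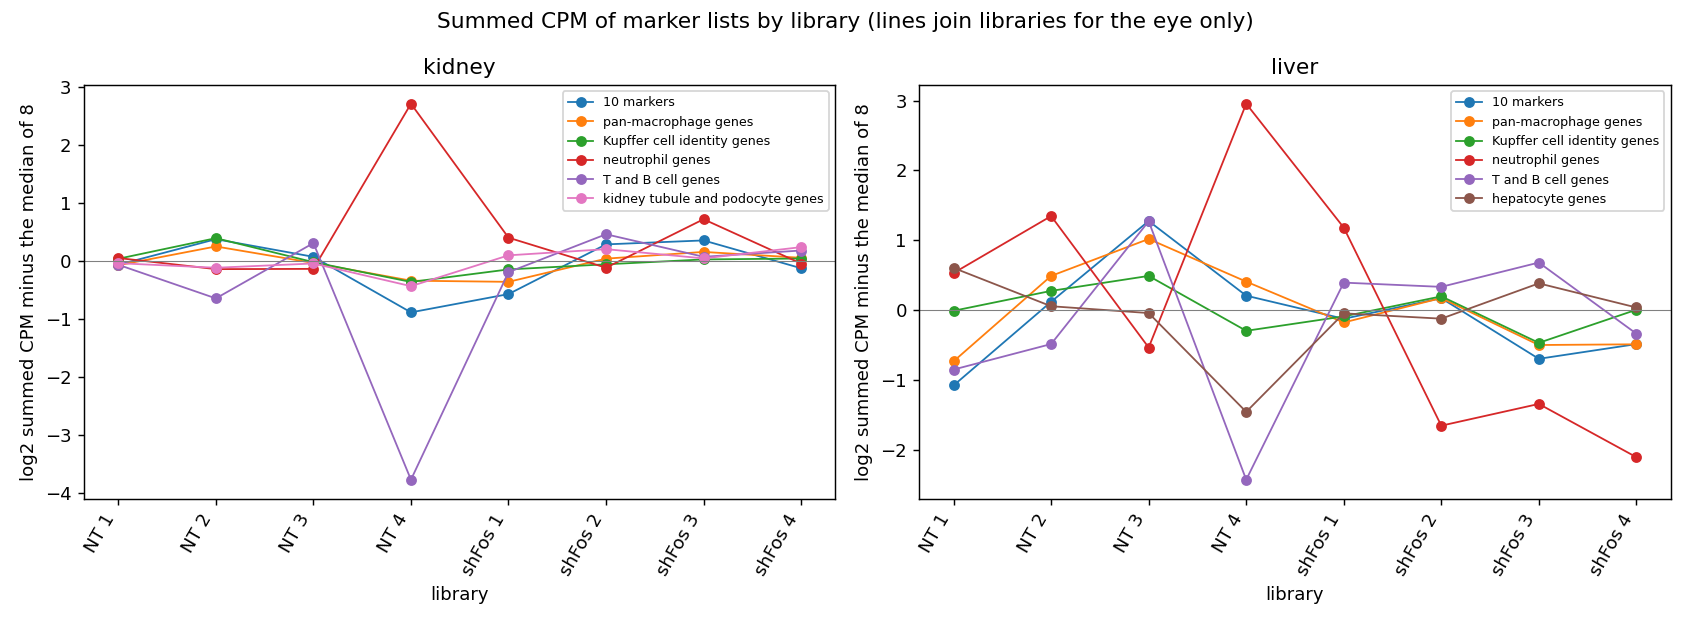
Log2 of the summed CPM of each marker list minus its median over the 8 libraries of the tissue, in kidney (left) and liver (right), with lines that join libraries for the eye only. The 10 markers, the pan-macrophage genes and the T and B cell genes peak in liver NT 3, whereas the neutrophil genes peak in NT 4 of both tissues and the T and B cell genes are lowest there.

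In the kidney 7 of the 10 members passed the filter on low counts, while Clec4f, Vsig4 and Marco did not. Of the 7, 5 had a lower fitted level under shFos and 2 a higher one, with a median log2 difference of -0.11 against 0.0023 over the 14892 genes tested, 49.7% of which lay below 0. No gene was called by edgeR (0%), and DESeq2 called 2693 (19.7%), none of them a member. At an unadjusted p under 0.05, 2198 genes (14.8%) were lower and 2549 (17.1%) higher under shFos, and the members among the former were Timd4 and Cd163, with none among the latter. The kidney differences were thus of both signs.

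Timd4 was the member whose kidney groups did not overlap. It was at 1.77, 0.670, 1.23 and 0.832 CPM in NT kidneys and 0.511, 0.602, 0.290 and 0.0774 CPM in shFos kidneys, from 1 to 27 reads a library, with a difference of -1.57 ± 0.53 (SE). Every shFos kidney lay below every NT kidney, as was the case for 7.70% of the genes tested. Cd163 was at 3.60, 3.62, 4.86 and 9.15 CPM under NT and 1.98, 4.48, 2.53 and 2.09 CPM under shFos (-0.95 ± 0.39 (SE)). NT 4 was the highest kidney, and without it the difference was -0.55. Cd5l was at 2.35, 1.54, 4.40 and 2.82 CPM under NT and 1.15, 3.28, 0.724 and 3.02 CPM under shFos (-0.46 ± 0.50 (SE)), with wide overlap.

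For the abundant macrophage genes of the kidney the fitted difference depended on single NT libraries, most on NT 4 and NT 2. Adgre1 was at 16.1, 24.2, 22.98 and 5.57 CPM in NT kidneys and 16.7, 25.3, 37.6 and 26.9 CPM in shFos kidneys, with NT 4 lowest of the 8 and shFos 3 highest. The difference was 0.61 ± 0.41 (SE), and 0.32 without NT 4 and 0.81 without NT 2. Cd68 was at 22.8, 29.9, 24.3 and 10.9 CPM under NT and 16.3, 26.9, 23.1 and 21.1 CPM under shFos (-0.026 ± 0.28 (SE), and -0.25 without NT 4 and 0.15 without NT 2). Lyz2 was at 230.0, 324, 246 and 116 CPM under NT and 159, 296, 313 and 215 CPM under shFos (0.083 ± 0.31 (SE), and -0.13 without NT 4 and 0.29 without NT 2). NT 4 was the lowest kidney for Cd68 and Lyz2 too. Mrc1 had the narrowest range over the 8 kidneys, at 23.3, 23.6, 24.5 and 20.3 CPM under NT and 15.5, 26.5, 23.9 and 19.9 CPM under shFos (-0.11 ± 0.16 (SE)).

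The 3 filtered members had few reads in kidney. Vsig4 was at 0.131, 0.402, 0.583 and 2.11 CPM in NT kidneys and 0.319, 0.267, 0.145 and 0.310 CPM in shFos kidneys, with 50 reads over the NT and 15 over the shFos libraries. Marco was at 0.131, 0.134, 1.62 and 1.86 CPM under NT and 0.128, 0.201, 0.507 and 0.0774 CPM under shFos, with 58 and 13 reads. NT 4 held the highest kidney value of both genes and NT 3 the next, and in liver NT 3 held the highest value of both and NT 4 the next. In kidney NT 4 the ratio of Cd163 to Adgre1 was 1.64, against 0.0673 to 0.223 in the other 7 kidneys, and that of Mrc1 to Adgre1 was 3.64 against 0.635 to 1.45. The markers therefore moved in opposite directions within this one library.

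The kidney lists gave the same picture of mixed signs. Of 20 pan-macrophage genes 13 lay below 0 and none was called (median -0.11). The smallest p-values belonged to the efferocytosis receptor Mertk at 0.24 ± 0.073 (SE, adjusted p = 0.0773) and to the lipid receptor Trem2 at -0.72 ± 0.26 (SE, adjusted p = 0.0995). In NT 4, the lowest kidney for Adgre1, Mertk was at 61.6 CPM against 61.9 to 66.4 CPM in the other NT kidneys. Lgmn alone made up 34.6% to 62.5% of the summed CPM of this list in kidney. Whether the genes of this list follow macrophages in kidney was not tested. Spi1 was at 15.7, 23.2, 16.3 and 6.08 CPM under NT and 10.98, 14.98, 17.9 and 13.7 CPM under shFos (-0.11 ± 0.34 (SE)), and Csf1r at 144, 175, 157 and 74.4 CPM and 131, 131, 83.7 and 132 CPM (-0.22 ± 0.26 (SE)). Both were lowest in NT 4. Of the Kupffer cell identity genes 14 were tested in kidney and 10 lay below 0 (median -0.31, none called). The iron exporter Slc40a1 differed by 0.51 ± 0.14 (SE, adjusted p = 0.0698) and the transcriptional regulator Id3 by -0.29 ± 0.090 (SE, adjusted p = 0.0796). Slc40a1 was lowest in NT 4 (53.4 CPM), while Id3 there (52.6 CPM) lay within the range of the other NT kidneys (47.5 to 60.5 CPM). Of the niche signals 9 were tested and 5 lay below 0 (median -0.094, none called), and the smallest p-values were those of the Notch ligand Jag1 at -0.40 ± 0.15 (SE, adjusted p = 0.109) and of Il34, a ligand of Csf1r, at -0.46 ± 0.20 (SE, adjusted p = 0.148).

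Among other cell types in the kidney, some lists stood apart in NT 4, and the sums of 2 lists did not overlap between treatments. Neutrophil genes summed to 25.6 CPM there against 3.55 to 6.44 CPM in the other 7, monocyte genes to 90.5 against 177 to 276 and dendritic cell genes to 24.3 against 34.1 to 64.9 CPM. Tubule and podocyte genes summed to 11044 to 14534 CPM in NT kidneys, lowest in NT 4 and 13762 to 14534 CPM in the other 3, and to 15391 to 17606 CPM in shFos kidneys. The liver sinusoidal endothelial list, whose most abundant gene here was the general endothelial gene Pecam1, summed to 240.4 to 332 CPM in NT kidneys, or 319 to 332 CPM without NT 4, and to 356 to 393 CPM in shFos kidneys. Both sums were thus higher in every shFos kidney than in every NT kidney, with or without NT 4. Of all genes tested in kidney, 17.1% were higher under shFos at an unadjusted p under 0.05 (edgeR). In the other direction, 7.70% had every shFos kidney below every NT kidney, and the share with every shFos kidney above was not counted. The 2 sums are therefore given as a description. Among the 2 genes with the smallest p of the monocyte, neutrophil, dendritic cell and endothelial lists were F13a1 at -0.94 ± 0.35 (SE, adjusted p = 0.113), S100a8 at -1.06 ± 0.73 (SE, adjusted p = 0.347), Batf3 at -0.73 ± 0.27 (SE, adjusted p = 0.109) and Kdr at 0.61 ± 0.16 (SE, adjusted p = 0.0660), and none was called. The part of these cells in the marker values was not tested.

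**Figure D5:**
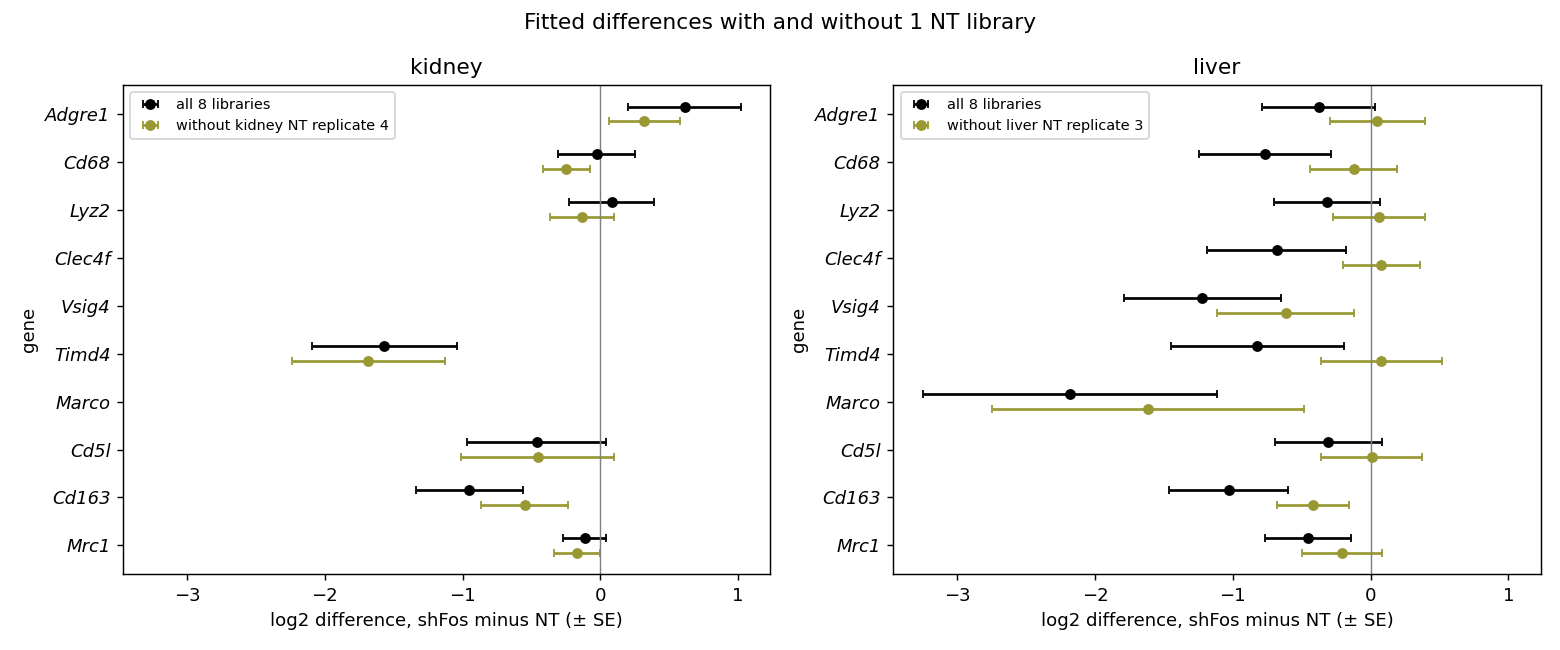
Fitted log2 difference of each marker, shFos minus NT, with its SE, in kidney (left) and liver (right), from all 8 libraries (black) and without the NT library that stands apart for these genes (olive). Clec4f, Vsig4 and Marco did not pass the filter in kidney. In liver all 10 differences lie below 0 with all libraries, and without NT 3 they move up so that 5 lie above 0.

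The difference between tissues in the response to the hairpin was fitted over all 16 libraries. No gene of 15421 was called (0%, edgeR), 2482 genes (16.1%) had an unadjusted p under 0.05, and DESeq2 called 343 (2.95%), none of them a member. Adgre1 had the largest difference among the well-counted members, -0.97 ± 0.61 (SE) (liver minus kidney), with an approximate 95% interval from -2.17 to 0.23. For Cd68 it was -0.73 ± 0.58 (SE) and for Mrc1 -0.33 ± 0.37 (SE). These values rested in good part on liver NT 3, without which they were -0.55, -0.091 and -0.081, and the median of the 10 members moved from -0.23 to 0.20. These libraries thus set a wide range on how far the response of the markers differed between tissues.

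The genes whose pattern over the 8 libraries of a tissue was most like that of a marker were named by the root mean square difference of centred log2 CPM. For Adgre1 in liver these were Klra2 (0.108), Laptm5 (0.128), Ly86 (0.138), Lcp2 (0.138) and Lst1 (0.143), where the median over 12412 genes was 0.673. For Clec4f in liver they were Pilrb2 (0.147), Axl (0.165), Bin2 (0.173), Slc8a1 (0.199) and Pilrb1 (0.201), with a median of 0.786. Pilrb1 and Pilrb2 are close paralogs whose reads may be split between them. For Adgre1 in kidney they were Spn (0.167), Fbln5 (0.170), Pik3ap1 (0.178), Mpeg1 (0.182) and Cd300ld (0.214), with a median of 0.777 over 14327 genes. The points share library, depth and scaling, and the likeness is given as a description.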

How the data were processed

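RNA-seq count tables of kidney and liver from aged mice given AAV8 shFos or NT vector were analysed, 16 libraries in all. The authors trimmed reads with Trimmomatic 0.39, aligned them to mm10 with HISAT2 2.2.1 and counted them per gene with HTSeq 0.12.4 without regard to strand, as the study's methods and the submitters' processing notes state, and the deposited values are raw counts per gene. Each table ended in 5 summary lines, left out of totals and tests: reads on no gene made up 13.4% to 26.7% and ambiguous reads 1.84% to 2.64%. Because ambiguous reads were dropped and strand ignored, paralogs and overlapping genes are uncertain. A count of 0 allows 3 counts, 0.164 to 0.211 CPM by library totals without TMM, and this limit covers counting error only. Positions and exon lengths came from GENCODE M21 (GRCm38), in which 98.3% of symbols were found, and promoters from RefSeq (GRCm38.p6). The smallest chi-square per degree of freedom between libraries of a group was 7.17, so none was a repeat of another.

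Fits ran per tissue with edgeR 4.0.16 under R 4.3.3 (low counts removed by filterByExpr, TMM scaling, robust quasi-likelihood test, Benjamini-Hochberg adjustment, calls at an adjusted p under 0.05), and the tissue contrast and the interaction in one fit of all 16. The SE is the log2 difference divided by the square root of F. Log2 CPM used a prior count of 2. The members and the gene lists were chosen with earlier results of these data known. Named genes are the members, Fos, Spi1, Csf1r, the 2 genes of each list with the smallest p in each tissue, of which those of other cell types are given in part, and the 5 genes most like Adgre1 in each tissue and most like Clec4f in liver among genes with a mean of at least 1 CPM. Lyz1, as the paralog of Lyz2, and Fn1, as the largest gene of its list, were named after their values were seen. Alternatives were DESeq2 1.42.0, upper-quartile scaling, no filter, a mean of at least 10 counts, a GC content offset (lowess span 0.3), one fit of all 16, calls that also needed a fold change above 2 or below 0.5, a block for replicate number with and without the GC offset, and each library left out. Library totals without TMM were added after seeing the data. The scripts were tested on simulated counts. Same-numbered NT kidneys and livers deviated together (r = 0.123, 0.368, 0.401 and 0.360 across genes). In the alternative fit with a replicate block, the numbers therefore paired the libraries for the contrast of NT livers with NT kidneys. This pairing comes from the data and not from the labels. It is not sure for number 1, since kidney NT 1 deviated more with liver NT 3 (r = 0.195). Same-numbered shFos kidneys and livers gave r = 0.0694, 0.156, 0.0408 and 0.104, and the block paired them by number as well. Under the replicate block 10211 genes were called in place of 9976, and the same number of members, 8, was called higher in liver. The tissue differences, SE and adjusted p given in the Results come from the fit without this block and ignore the pairing.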

Additional observations from a re-analysis of the deposited data

Results flagged for a closer look

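Over the 10 members and the 11 list sums, 84 groups of 4 libraries were searched for a library far from the others by Dixon's gap-to-range ratio at its 95% critical value. It singled out 7, against a nominal 4.20. The nominal number holds for normally distributed values. The CPM values were not log-transformed and the groups share libraries, so the 2 numbers are not a test. Marco was at 24.7 CPM against 5.51 to 7.99 CPM in the other 3 in liver shFos 2, and Timd4 in the same library at 10.8 CPM against 4.39 to 5.40 CPM in the other 3. Cd163 was at 6.19 CPM against 1.52 to 2.29 CPM in the other 3 in liver NT 3. Neutrophil genes summed to 25.6 CPM against 3.55 to 4.05 CPM in the other 3 in kidney NT 4 and to 50.9 CPM against 5.23 to 8.86 CPM in the other 3 in liver shFos 1. Sinusoidal endothelial genes summed to 240.4 CPM against 319 to 332 CPM in the other 3 in kidney NT 4, and niche signals to 382 CPM against 303 to 306 CPM in the other 3 in kidney shFos 2. The liver libraries NT 3 and NT 4, which set the Marco level of their group, were not singled out for Marco because both were high.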

How the results depend on the processing

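The counts of called genes depended on the tool and on single libraries. In kidney, where edgeR called 0, DESeq2 called 2693, the fit without a filter 3 and the fit of all 16 libraries 994, and with each library left out the count ran from 0 to 4126, the highest without shFos 1 and 3 without NT 4. DESeq2 called 37 genes in liver and 343 for the difference between tissues, whose count ran from 0 to 1246 with each library left out, the highest without kidney shFos 1. No member was called between treatments under any of these. The median of the members ran from -0.25 to -0.028 in kidney and -1.01 to -0.057 in liver with each library left out. In kidney it was -0.27 under the GC offset, -0.29 with the block as well and -0.22 under library totals, and over all 10 members -0.27 without a filter, -0.29 under DESeq2 and -0.30 in the fit of all 16, against -0.11 for the 7 that passed the filter. The number of members called higher in liver ran from 8 to 9, and the genes called between tissues from 9489 to 10245. The replicate number did not pair the treatments, since same-numbered libraries did not deviate together, and under the replicate block edgeR called 0 genes in kidney and 0 in liver, while the liver median of the members was -0.41. In kidney Cd68 turned to 0.040 under the GC offset, 0.030 under the block and 0.091 under both, Spi1 to 0.14 under the GC offset and 0.22 under both, and Lyz2 to -0.022 under library totals. Between tissues Lyz2 turned to -0.40 and Cd163 to -0.83 under library totals, which moved the median of all genes from -0.054 to -1.10, so that both stayed above it, and for the difference between tissues Cd163 turned to 0.086 under the block. Genes whose sign turned when some library was left out ran, over all such fits, as follows. In kidney they were Cd68 -0.25 to 0.15, Lyz2 -0.13 to 0.29, Spi1 -0.37 to 0.15, S100a8 -1.37 to 0.37, S100a9 -1.18 to 0.59, Cyp2e1 -1.04 to 0.54. In liver they were Adgre1 -0.64 to 0.048, Lyz2 -0.59 to 0.061, Clec4f -0.97 to 0.079, Timd4 -1.20 to 0.078, Cd5l -0.56 to 0.0094, Cd4 -1.95 to 0.24, in each case through NT 3. Between tissues it was Cd163 -0.46 to 0.57. For the difference between tissues they were Vsig4 -0.75 to 1.01, Marco -0.85 to 0.47, Cd5l -0.18 to 0.49, Cd163 -0.52 to 0.55. The causes were not tested. Of 698 other values of single genes under other settings 675 kept direction and call, as did 772 of 816 with a library left out. Depth limits Clec4f, Vsig4 and Marco in kidney.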
